A study of Mus musculus with 12 samples.

Results

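The genes described here are the guardians, effectors and BH3-only genes of the BCL2 family, which control the mitochondrial route of apoptosis. They were chosen by gene symbol, as 10 genes (Bcl2, Bcl2l1, Mcl1, Bax, Bak1, Bcl2l11, Bbc3, Bid, Bik and Pmaip1) of the 47069 genes in the deposited expression table. All 10 were found, and all 10 had a mean of at least 0.1 FPKM over the 12 libraries, the filter that left 17385 genes for the tests. FPKM counts sequenced fragments relative to transcript length and to all mapped fragments of the library.

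The study asked how mouse liver fares when its hepatocytes cannot divide. Polyadenylated RNA was sequenced from isolated hepatocytes and from whole liver of WT and Cdk1 Liv-/- pups at P14, with 3 libraries in each of 4 groups. Cdk1 Liv-/- mice carried Cdk1 flox/flox together with Albumin-Cre. The Albumin promoter drives Cre in hepatocytes, so endothelial, stellate and blood-derived cells of the same liver kept Cdk1. The controls were given as WT, with no further allele named. All mice were males according to the study, kept on standard diet. Whether hepatocytes and whole liver with the same number came from 1 animal was not given in the sources used here. An FPKM of 1 on 1 kb of transcript stood for an estimated 34.7 to 49.6 reads in the 12 libraries, or 30.1 to 40.7 if full transcript length is taken.

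BCL2 family proteins decide whether the outer mitochondrial membrane stays intact. The guardians BCL2, BCL-XL (from Bcl2l1) and MCL1 hold the effectors BAX and BAK in check, and BH3-only proteins such as BIM (from Bcl2l11), PUMA (from Bbc3), BID, BIK and NOXA (from Pmaip1) release that hold or activate the effectors directly. In hepatocytes, MCL1 and BCL-XL are required for survival, BID links death receptors to mitochondria, and Bbc3, Pmaip1 and Bax are known targets of p53.

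Cdk1 itself was measured first, as a check of the labels. In isolated hepatocytes, Cdk1 stood at 27.9, 20.4 and 28.2 FPKM in the WT libraries and at 9.68, 11.8 and 6.87 FPKM in the Cdk1 Liv-/- libraries. In whole liver it stood at 25.3, 22.7 and 21.5 FPKM in WT and at 11.7, 12.1 and 14.2 FPKM in Cdk1 Liv-/-. Every Cdk1 Liv-/- library lay below every WT library of its compartment. The log2 fold change of FPKM + 0.5, the scale of all fold changes given here, was -1.40 ± 0.22 (SE) in isolated hepatocytes (limma adjusted p = 0.0148) and -0.85 ± 0.10 in whole liver (limma adjusted p = 0.00353), with 3 libraries against 3.

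Among these libraries, 2 stood apart. Cdk1 Liv-/- whole liver replicate 3 had 158 FPKM of Xist, the RNA of the inactive X chromosome, and 0 FPKM summed over Kdm5d, Uty, Eif2s3y and Ddx3y, which lie on the Y chromosome. The other 11 libraries had at most 0.14 FPKM of Xist and 48.4 to 62.1 FPKM of these Y genes, so that library went against the all-male design. WT hepatocytes replicate 3 held more RNA of other liver cells than the remaining hepatocyte libraries, with values given with the markers of these cells. Where leaving out either library changed a call among the 10 members, the value without it is given with the result.

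Markers of cell types were summed for each library, from lists of 5 to 11 genes. The hepatocyte markers (11 of 11 measured, Alb highest) summed to 81202, 89434 and 84505 FPKM in WT hepatocytes, 58036, 58341 and 55004 in Cdk1 Liv-/- hepatocytes, 83535, 81740 and 84742 in WT whole liver and 65029, 57814 and 63636 in Cdk1 Liv-/- whole liver. The sinusoidal endothelial markers (10 of 10, Fcgr2b highest) summed to 165, 115 and 305 FPKM, then 75.6, 49.5 and 54.7 FPKM, then 150.0, 179 and 212 FPKM, and 189.6, 234 and 188 FPKM in the same order of groups. Both sums were lower in every Cdk1 Liv-/- hepatocyte library than in any WT hepatocyte library. The hepatocyte sum was mostly Alb, at 62176 FPKM on average in WT hepatocytes. In isolated hepatocytes 5 genes of that list were higher and 6 lower. Cps1 (0.66) and Hnf4a (0.45) were past the threshold upward and Apoa1 (-1.12) and Ttr (-0.99) downward. In whole liver 1 gene of that list was higher and 10 lower. There 0 were past the threshold upward and 4 downward, where 38% and 7.54% of all genes were. For Kupffer cells and macrophages (11 of 11, Cd5l highest) the sums were 374, 203 and 689 FPKM, then 228, 169.8 and 149 FPKM, then 539, 593 and 600.1 FPKM, and 688, 945 and 716 FPKM. For stellate cells (10 of 10, Col3a1 highest) they were 216, 129 and 454 FPKM, then 129, 122 and 106 FPKM, then 470.2, 464 and 535 FPKM, and 863, 1064.5 and 828 FPKM. Kupffer and stellate sums were thus higher in each Cdk1 Liv-/- whole liver library than in any WT whole liver library. Taken singly, 5 of 11 Kupffer and 5 of 10 stellate genes did not overlap between the genotypes there, beside 52.1% of all genes. Past the threshold upward were 4 and 5 of them, beside 38% of all genes. The list medians relative to all genes were 0.08 and 0.50.

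The monocyte markers (5 of 5, Plac8 highest) summed to 11.2, 7.17 and 17.6 FPKM in WT hepatocytes, 11.8, 11.3 and 13.6 in Cdk1 Liv-/- hepatocytes, 25.6, 25.3 and 23.8 in WT whole liver and 61.9, 65.5 and 58.5 in Cdk1 Liv-/- whole liver. Neutrophil markers (10 of 10, S100a9 highest) came to 15.3, 12.6 and 53.3 FPKM, then 21.9, 10.3 and 20.9 FPKM, then 75.9, 47.7 and 73.0 FPKM, and 92.8, 327 and 261 FPKM. Both sums were higher in whole liver of Cdk1 Liv-/- mice, without overlap between the genotypes. Taken singly, 4 of 5 monocyte and 6 of 10 neutrophil genes did not overlap there, beside 52.1% of all genes. Cholangiocyte markers (6 of 6, Spp1 highest) came to 19.6, 14.6 and 30.1 FPKM, then 66.8, 124 and 100.2 FPKM, then 59.4, 62.2 and 45.9 FPKM, and 270.4, 139 and 259.5 FPKM, and Spp1 alone made up most of these sums, with 92.8 FPKM on average in Cdk1 Liv-/- hepatocytes and 209 FPKM in Cdk1 Liv-/- whole liver. The sums were higher in Cdk1 Liv-/- libraries of both compartments, while Krt19 overlapped between the genotypes in whole liver. Lymphocyte and erythroid lists completed the set.

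Erythroid markers (9 of 10, Hbb-bs highest) summed to 113, 82.4 and 402 FPKM, then 49.2, 77.5 and 20.2 FPKM, then 798, 869 and 1534 FPKM, and 778, 1207 and 956 FPKM, again in the order of groups used above. B cell markers (8 of 8, Cd79b highest) summed to 4.01, 2.48 and 9.38 FPKM, then 1.64, 0.93 and 0.94 FPKM, then 17.5, 13.95 and 18.1 FPKM, and 6.14, 14.1 and 11.7 FPKM. T and NK cell markers (10 of 10, Gzma highest) summed to 5.73, 3.83 and 7.39 FPKM, then 2.32, 1.56 and 1.76 FPKM, then 13.8, 20.7 and 11.1 FPKM, and 9.48, 12.8 and 10.2 FPKM. In isolated hepatocytes these 3 lists were lower in every Cdk1 Liv-/- library than in any WT library. No measured marker was at 0 in all libraries of a group. WT hepatocytes replicate 3 had the highest sum among hepatocyte libraries for each list of non-hepatocyte cells other than cholangiocytes. These marker levels moved with genotype beside the family genes described next, and their part in those results was not tested. In such bulk samples, fewer cells of a type and less RNA per cell cannot be told apart.

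In Cdk1 Liv-/- isolated hepatocytes, the BH3-only genes Bbc3 and Pmaip1 and the effector Bax rose, and the BH3-only gene Bik fell. The same 4 genes moved in whole liver, where the guardians Bcl2, Bcl2l1 and Mcl1 and the effector Bak1 also rose, by smaller amounts. In isolated hepatocytes 4 of 10 members passed an adjusted p of 0.1 in limma, beside 18.7% of all genes tested, and all 4 were called, which also asked that the change be 1 or more on the log2 scale in either direction and which 6.37% of all genes were. In whole liver 8 of 10 passed the adjusted p, beside 45.6% of all genes, and 3 of 10 were called, beside 5.59%. WT and Cdk1 Liv-/- libraries did not overlap for 6 of 10 members in isolated hepatocytes and for 8 of 10 in whole liver, where 34% and 52.1% of all genes did not overlap. The 2 comparisons share no library. Over the alternatives the members past the adjusted p numbered 3 to 6 in isolated hepatocytes, with 3 without WT hepatocytes replicate 3 and 5 without Cdk1 Liv-/- hepatocytes replicate 2, and 6 to 8 in whole liver, with 8 without the library with Xist. In these fits with 1 library left out, 13%, 13.1% and 37.2% of all genes passed, in that order. The called members numbered 3 to 4 in isolated hepatocytes, with 3 under size factors and without WT hepatocytes replicate 1, 2 or 3 or Cdk1 Liv-/- hepatocytes replicate 2, and 3 throughout in whole liver. For Bcl2, Bcl2l1, Mcl1 and Bak1, which passed in whole liver alone, the difference between the compartments did not pass limma's interaction test, whose values are given further below.

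The median log2 fold change of the 10 members was 0.31 in isolated hepatocytes, where that of all genes was 0.05. In whole liver it was 0.40 against 0.18 for all genes. Median-ratio size factors moved the median of all genes in whole liver by -0.17, to 0.01, so whole liver changes are also given relative to the median of all genes. On that scale the median of the members was 0.26 in isolated hepatocytes and 0.22 in whole liver. The plot of single libraries shows the spread behind these values.

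**Figure D1:**
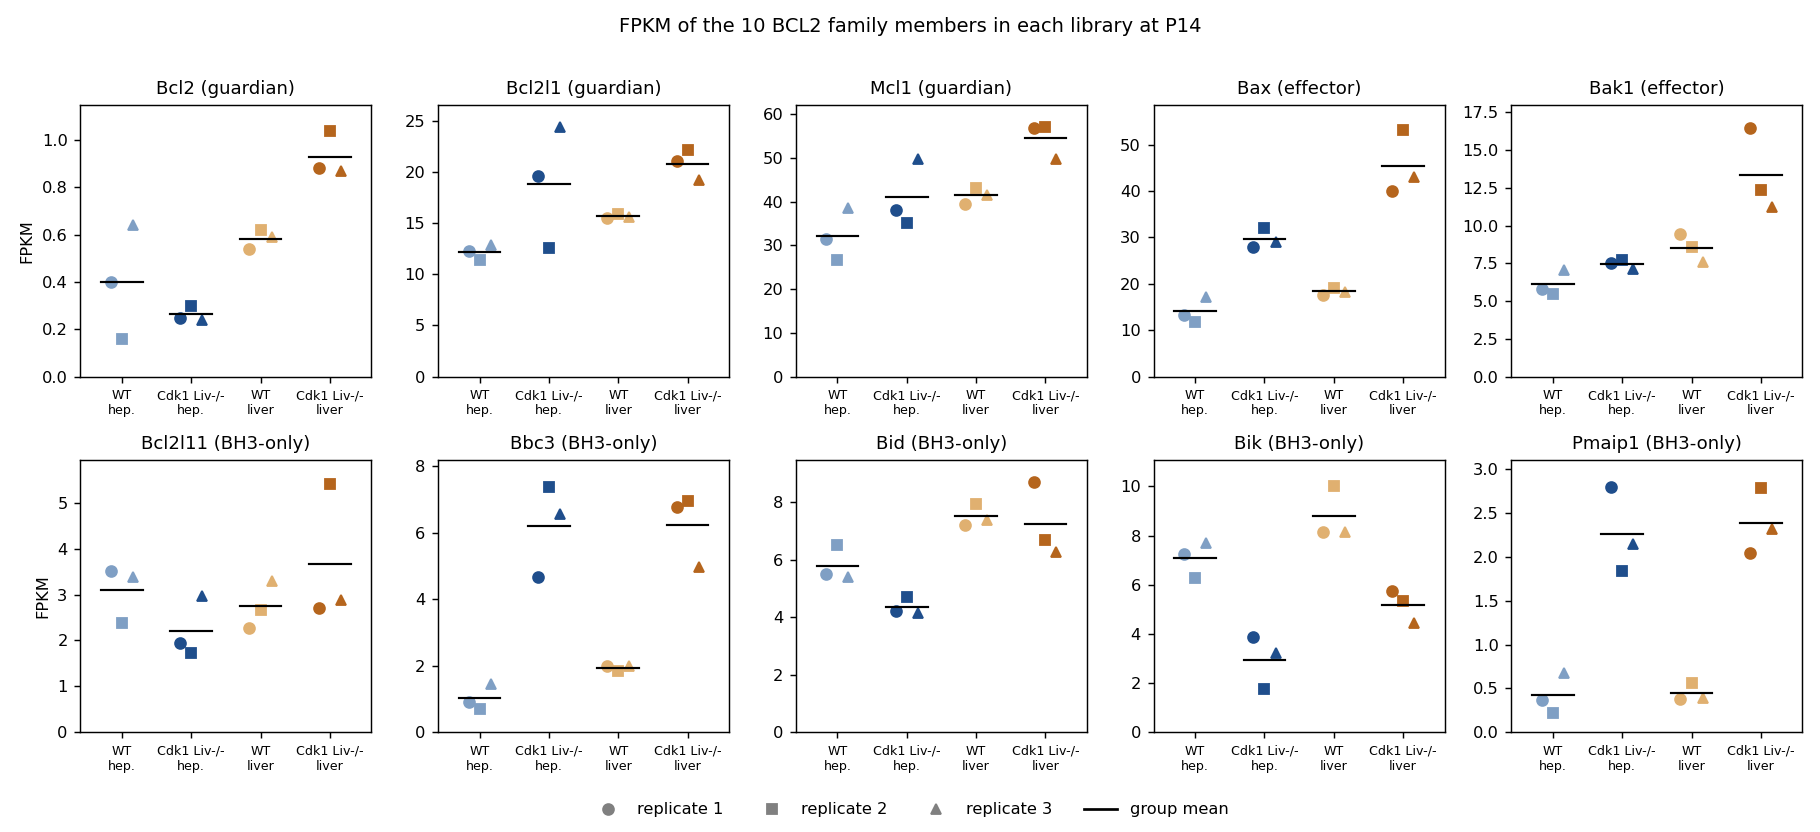
FPKM of each of the 10 family members (vertical axes, each from 0) in the 3 libraries of each of the 4 groups, with a horizontal line at the group mean and a different symbol for each replicate number. Bax, Bbc3 and Pmaip1 are higher and Bik is lower in every Cdk1 Liv-/- library than in any WT library of the same compartment.

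The guardian Mcl1 had the highest mean FPKM of the members in each group, and the guardian Bcl2 and the BH3-only gene Pmaip1 were the lowest in both WT groups. Ordered by mean FPKM, a scale per transcript length, Mcl1 stood first in WT hepatocytes at 32.2 ± 5.99 (SD, n = 3), Bax next at 14.1 ± 2.70 and then Bcl2l1 at 12.2 ± 0.739, and the libraries of Bax and Bcl2l1 overlapped. Bik at 7.08, Bak1 at 6.11 and Bid at 5.80 FPKM followed, each overlapping the next. Then came Bcl2l11 at 3.09 and Bbc3 at 1.02 FPKM. Pmaip1 at 0.423 and Bcl2 at 0.40 FPKM closed the order and overlapped each other. In Cdk1 Liv-/- hepatocytes the first 3 places were the same, but Bbc3, at 6.20 FPKM, had moved from place 8 to place 5 and overlapped Bak1 at 7.46. Bik, at 2.95 FPKM, had moved from place 4 to place 7 and overlapped Pmaip1 at 2.26. WT whole liver kept the order of WT hepatocytes except that Bcl2 stood above Pmaip1, while in Cdk1 Liv-/- whole liver Bax, at 45.4 FPKM, overlapped Mcl1 at 54.5.

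Mcl1 encodes a short-lived guardian that binds BIM, NOXA and BAK. Its ENSMUSG00000038612 entry lies on chromosome 3 at 95658788 to 95663176 of GRCm38, the build also called mm10. In isolated hepatocytes Mcl1 stood at 31.5, 26.6 and 38.5 FPKM in WT and at 38.2, 35.1 and 49.9 FPKM in Cdk1 Liv-/-. The genotypes overlapped, since the highest WT library, replicate 3, lay above 2 of the Cdk1 Liv-/- libraries. Whole livers had 39.6, 43.0 and 41.6 FPKM in WT and 56.8, 57.1 and 49.7 FPKM in Cdk1 Liv-/-. Here each Cdk1 Liv-/- library was above each WT library. The log2 fold change was 0.35 ± 0.18 in isolated hepatocytes (limma adjusted p = 0.266) and 0.39 ± 0.07 in whole liver (limma adjusted p = 0.0122), the latter 0.21 relative to all genes. With size factors the whole liver change of Mcl1 was 0.17 and missed the threshold (limma adjusted p = 0.116, where its alternatives ranged from 0.00979 to 0.116).

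Bcl2l1 (ENSMUSG00000007659, chromosome 2, 152780668 to 152831728) encodes BCL-XL, the second abundant guardian. Its hepatocyte values were 12.3, 11.4 and 12.9 FPKM in WT and 19.6, 12.5 and 24.4 FPKM in Cdk1 Liv-/-. Replicate 2 of the Cdk1 Liv-/- hepatocytes lay within the WT range, and the other 2 were well above it. Whole livers had 15.5, 15.8 and 15.6 FPKM in WT and 21.1, 22.2 and 19.2 FPKM in Cdk1 Liv-/-. The WT whole livers were nearly alike, with an SD of 0.172, and the Cdk1 Liv-/- libraries were all higher. Its log2 fold change was 0.56 ± 0.23 in isolated hepatocytes (limma adjusted p = 0.180) and 0.40 ± 0.07 in whole liver (limma adjusted p = 0.00876), the latter 0.22 relative to all genes. Without Cdk1 Liv-/- hepatocytes replicate 2 the hepatocyte difference was 0.82 and passed the threshold (limma adjusted p = 0.0289, where its alternatives ranged from 0.0289 to 0.364). In 1 fit of all 12 libraries the hepatocyte difference passed (limma adjusted p = 0.0479) and the whole liver one did not (limma adjusted p = 0.135, where its alternatives ranged from 0.00686 to 0.135).

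Bcl2 (ENSMUSG00000057329, chromosome 1, 106538178 to 106714274), the founding guardian, was near the lower end of what was measured. Hepatocyte libraries had 0.40, 0.16 and 0.64 FPKM in WT and 0.25, 0.30 and 0.24 FPKM in Cdk1 Liv-/-. The WT libraries enclosed the Cdk1 Liv-/- libraries, with WT replicate 3, the library rich in markers of other cells, at the top. Whole livers had 0.54, 0.62 and 0.59 FPKM in WT and 0.88, 1.04 and 0.87 FPKM in Cdk1 Liv-/-, without overlap. For Bcl2 the log2 fold change was -0.20 ± 0.20 in isolated hepatocytes (limma adjusted p = 0.553) and 0.40 ± 0.08 in whole liver (limma adjusted p = 0.0174), the latter 0.22 relative to all genes. Without WT hepatocytes replicate 3 the hepatocyte difference was -0.01. In 1 fit of all 12 libraries the whole liver change missed the threshold (limma adjusted p = 0.106, where its alternatives ranged from 0.00909 to 0.106).

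Bax is the effector that moves from the cytosol to mitochondria and forms pores there. In isolated hepatocytes Bax stood at 13.2, 11.9 and 17.1 FPKM in WT and at 28.0, 32.1 and 29.1 FPKM in Cdk1 Liv-/-. The lowest Cdk1 Liv-/- library was far above the highest WT library, WT replicate 3. Bax in whole liver reached 17.7, 19.1 and 18.3 FPKM in WT and 40.0, 53.2 and 42.9 FPKM in Cdk1 Liv-/-. The gap between the genotypes there was again wider than the spread within either. The ratio of mean FPKM was 2.12 in isolated hepatocytes and 2.47 in whole liver. On the log2 scale Bax rose by 1.07 ± 0.14 in isolated hepatocytes (limma adjusted p = 0.00916) and by 1.27 ± 0.11 in whole liver (limma adjusted p = 0.00160), the latter 1.09 relative to all genes, and it passed the adjusted p under every alternative run, although its hepatocyte change was under the size of 1 required for a call with size factors, at 0.99, and without WT hepatocytes replicate 2, at 0.96.

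Bax (ENSMUSG00000003873) lies on the minus strand of chromosome 7 at 45461697 to 45466898 of GRCm38, and is overlapped on the same strand by Gm45808. The latter shared 6.84% of the windows of 75 bases, the read length, in Bax transcripts, and the other 9 members shared no such window with another gene. The RefSeq promoter of Bax in GRCm38.p6, at chr7:45466849-45467148 on the minus strand, runs from 250 bases before to 50 bases after the start, and is shown because Bax is the effector that rose in both compartments. Capitals mark a p53 half-site at bases 50 to 59 and 3 matches to GGGCGG on either strand.
Bax: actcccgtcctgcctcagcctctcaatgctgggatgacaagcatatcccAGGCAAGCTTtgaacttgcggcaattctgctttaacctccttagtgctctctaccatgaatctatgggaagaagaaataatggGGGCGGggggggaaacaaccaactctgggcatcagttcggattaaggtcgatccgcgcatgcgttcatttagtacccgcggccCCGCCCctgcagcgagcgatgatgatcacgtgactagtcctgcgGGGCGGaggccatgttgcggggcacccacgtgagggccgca
Of all 32851 RefSeq promoter windows of 300 bases, 8.36% held a p53 half-site and 35.7% held GGGCGG. Promoter windows were examined for 8 of the 10 members, 13 windows in all. No window of Bik or Pmaip1 was examined, so the counts leave out Pmaip1, introduced above as a p53 target. Among the 8, the p53 half-site was in a window of 1 member, Bax. GGGCGG was in windows of 6 of the 8. The letters TTTGGCGC and TTTCCCGC, on either strand, were in none of the 13 windows and in 0.514% and 1.07% of all windows. A match describes the letters and does not show that a factor binds there.

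Bak1 (ENSMUSG00000057789, chromosome 17, 27019810 to 27029009) encodes the effector that resides in the mitochondrial membrane. Its hepatocyte values were 5.80, 5.50 and 7.03 FPKM in WT and 7.49, 7.75 and 7.13 FPKM in Cdk1 Liv-/-. The genotypes did not overlap, but only narrowly, with WT replicate 3 just under the lowest Cdk1 Liv-/- library. Its whole liver values were 9.43, 8.57 and 7.56 FPKM in WT and 16.4, 12.4 and 11.2 FPKM in Cdk1 Liv-/-, again without overlap. For Bak1 the log2 fold change was 0.27 ± 0.12 in isolated hepatocytes (limma adjusted p = 0.202) and 0.60 ± 0.16 in whole liver (limma adjusted p = 0.0324), the latter 0.42 relative to all genes. With size factors the whole liver change was 0.39 and missed the threshold (limma adjusted p = 0.136, where its alternatives ranged from 0.0119 to 0.136). Bak1 is overlapped on the opposite strand by Ggnbp1, and whether the quantification used strand was not given in the sources used here.

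Bbc3 encodes PUMA, a BH3-only protein that binds all guardians and activates the effectors. In isolated hepatocytes Bbc3 stood at 0.92, 0.71 and 1.44 FPKM in WT and at 4.65, 7.38 and 6.57 FPKM in Cdk1 Liv-/-. Even the lowest Cdk1 Liv-/- library was well above WT replicate 3, the highest of WT. Bbc3 in whole liver was at 1.99, 1.84 and 1.99 FPKM in WT and at 6.77, 6.94 and 4.95 FPKM in Cdk1 Liv-/-. The WT whole livers lay above the WT hepatocytes, whereas the Cdk1 Liv-/- groups overlapped. The ratio of mean FPKM was 6.06 in isolated hepatocytes and 3.21 in whole liver. On the log2 scale Bbc3 rose by 2.14 ± 0.25 in isolated hepatocytes (limma adjusted p = 0.00593) and by 1.45 ± 0.14 in whole liver (limma adjusted p = 0.00198), the latter 1.27 relative to all genes. Both changes passed the threshold under every alternative run, with hepatocyte changes of 1.83 to 2.51.

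Bbc3 (ENSMUSG00000002083) lies on the plus strand of chromosome 7 at 16308393 to 16318205 of GRCm38, with no gene annotated across it. Of its 3 RefSeq promoter windows in GRCm38.p6, those at chr7:16309333-16309632 and chr7:16310011-16310310, both on the plus strand, are shown because this gene had the largest change of the 10 members in isolated hepatocytes. Bcl2l11, whose product BIM is the other BH3-only protein with a broad reach, is set beside it with the first of its 2 windows, at chr2:128125788-128126087 on the plus strand, because its difference between the genotypes missed the threshold where that of Bbc3 passed. Capitals mark GGGCGG and GTAAACA, a core of forkhead factor motifs, on either strand.
Bbc3, first window: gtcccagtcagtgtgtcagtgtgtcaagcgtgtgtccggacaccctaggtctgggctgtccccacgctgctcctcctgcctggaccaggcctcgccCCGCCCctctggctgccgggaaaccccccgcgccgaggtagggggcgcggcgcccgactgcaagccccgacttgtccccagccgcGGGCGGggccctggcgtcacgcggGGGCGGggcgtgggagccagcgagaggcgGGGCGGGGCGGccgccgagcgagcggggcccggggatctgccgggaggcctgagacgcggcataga
Bbc3, second window: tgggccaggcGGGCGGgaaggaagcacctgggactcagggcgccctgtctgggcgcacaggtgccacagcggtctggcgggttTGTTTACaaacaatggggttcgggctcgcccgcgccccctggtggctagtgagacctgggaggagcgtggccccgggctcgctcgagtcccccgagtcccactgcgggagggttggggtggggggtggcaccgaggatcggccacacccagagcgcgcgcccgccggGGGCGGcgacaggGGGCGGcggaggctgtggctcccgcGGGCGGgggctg
Bcl2l11: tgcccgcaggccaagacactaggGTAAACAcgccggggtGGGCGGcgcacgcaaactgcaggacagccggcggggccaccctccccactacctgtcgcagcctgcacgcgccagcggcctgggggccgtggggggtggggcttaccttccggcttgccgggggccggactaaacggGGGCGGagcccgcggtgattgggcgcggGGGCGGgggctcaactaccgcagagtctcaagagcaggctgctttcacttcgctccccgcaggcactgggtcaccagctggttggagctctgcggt
GTAAACA, which 3.65% of all promoter windows held, was at bases 84 to 90 of the second Bbc3 window, where it reads on the minus strand, and at bases 24 to 30 of the Bcl2l11 window. The first Bbc3 window held 5 matches to GGGCGG, the second 4 and that of Bcl2l11 3. None of these 3 windows held the p53 half-site, which says only that these letters are not in them.

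Bcl2l11 (ENSMUSG00000027381, chromosome 2, 128126038 to 128162547) differed from Bbc3. Hepatocyte libraries had 3.51, 2.38 and 3.38 FPKM in WT and 1.95, 1.72 and 2.96 FPKM in Cdk1 Liv-/-. Replicate 3 of Cdk1 Liv-/- lay inside the WT range and the other 2 below it. Its whole liver values were 2.27, 2.66 and 3.29 FPKM in WT and 2.71, 5.41 and 2.87 FPKM in Cdk1 Liv-/-. Replicate 2 of Cdk1 Liv-/- was far above all other libraries, and the remaining 2 lay inside the WT range. The log2 fold change was -0.42 ± 0.23 in isolated hepatocytes (limma adjusted p = 0.288) and 0.32 ± 0.26 in whole liver (limma adjusted p = 0.386), and neither passed the threshold under any alternative run. Without Cdk1 Liv-/- whole liver replicate 2 the whole liver difference was 0.03.

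Bid (ENSMUSG00000004446, chromosome 6, 120891930 to 120916853) encodes the BH3-only protein that caspase-8 cleaves. In isolated hepatocytes it stood at 5.49, 6.50 and 5.42 FPKM in WT and at 4.22, 4.71 and 4.16 FPKM in Cdk1 Liv-/-, lower in each Cdk1 Liv-/- library. In whole liver it stood at 7.22, 7.96 and 7.40 FPKM in WT and at 8.71, 6.70 and 6.29 FPKM in Cdk1 Liv-/-, where 1 library lay above the WT range and 2 below it. The log2 fold change was -0.37 ± 0.12 in isolated hepatocytes (limma adjusted p = 0.113) and -0.07 ± 0.13 in whole liver (limma adjusted p = 0.712), the latter -0.25 relative to all genes. The hepatocyte difference passed the threshold under 5 of 16 alternatives, among them size factors, at -0.44 (limma adjusted p = 0.0918, where its alternatives ranged from 0.0504 to 0.259). Without Cdk1 Liv-/- whole liver replicate 3, the library with Xist, the whole liver difference turned to 0.02. Bid is overlapped on the same strand by Gm44260 and on the opposite strand by Bcl2l13 and Gm17812.

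Bik (ENSMUSG00000016758, chromosome 15, 83526862 to 83544634) encodes a BH3-only protein of the endoplasmic reticulum. Between the genotypes, it was the only member past the threshold downward in limma with no alternative applied. In isolated hepatocytes it stood at 7.25, 6.29 and 7.71 FPKM in WT and at 3.86, 1.77 and 3.23 FPKM in Cdk1 Liv-/-. Each Cdk1 Liv-/- library was far under the WT range, and replicate 2 was lowest. In whole liver it stood at 8.15, 10.03 and 8.15 FPKM in WT and at 5.75, 5.35 and 4.44 FPKM in Cdk1 Liv-/-, without overlap. The ratio of mean FPKM was 0.417 in isolated hepatocytes and 0.590 in whole liver. On the log2 scale Bik fell by 1.18 ± 0.26 in isolated hepatocytes (limma adjusted p = 0.0386) and by 0.71 ± 0.12 in whole liver (limma adjusted p = 0.0108), the latter -0.89 relative to all genes. The hepatocyte change had nearly the same size but missed the threshold without WT hepatocytes replicate 1 (-1.17, limma adjusted p = 0.120) and without WT hepatocytes replicate 3 (-1.12, limma adjusted p = 0.105), where its alternatives ranged from 0.00273 to 0.120. Without Cdk1 Liv-/- hepatocytes replicate 2 it passed the threshold at -0.91, under the size required for a call. Gm46495 overlaps Bik on the opposite strand.

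Pmaip1 (ENSMUSG00000024521, chromosome 18, 66458533 to 66465565) encodes NOXA, which binds MCL1. Hepatocyte libraries had 0.37, 0.22 and 0.68 FPKM in WT and 2.80, 1.84 and 2.15 FPKM in Cdk1 Liv-/-. Whole livers had 0.38, 0.56 and 0.39 FPKM in WT and 2.04, 2.79 and 2.32 FPKM in Cdk1 Liv-/-. WT levels were under 1 FPKM in all 6 libraries and Cdk1 Liv-/- levels above it in all 6. The ratio of mean FPKM was 5.35 in isolated hepatocytes and 5.38 in whole liver. On the log2 scale, where the added 0.5 understates the change of a gene at this level, Pmaip1 rose by 1.60 ± 0.24 in isolated hepatocytes (limma adjusted p = 0.0119) and by 1.61 ± 0.13 in whole liver (limma adjusted p = 0.00131), the latter 1.43 relative to all genes, and it passed under every alternative run.

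**Figure D2:**
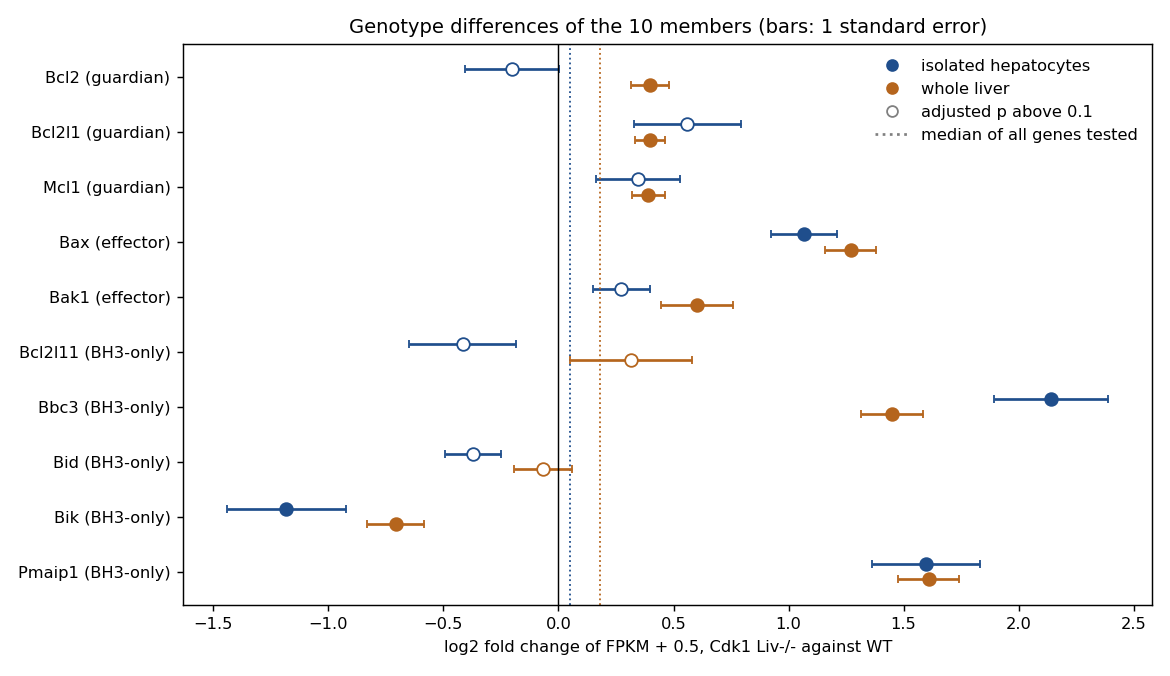
Log2 fold change of FPKM + 0.5 between Cdk1 Liv-/- and WT (horizontal axis) for each member, ordered by role, in isolated hepatocytes (blue) and whole liver (brown), with bars of 1 standard error, filled circles for an adjusted p of at most 0.1 and dotted lines at the median of all genes tested. Bbc3, Pmaip1 and Bax lie above 1 in both compartments (Bax in isolated hepatocytes at 0.99 with size factors and 0.96 without WT hepatocytes replicate 2), Bik lies below 0 in both, and the filled circles of Bcl2, Bcl2l1, Mcl1 and Bak1 in whole liver lie between 0.39 and 0.60.

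A fit of all 12 libraries asked whether a genotype difference was itself different in the 2 compartments, which is the interaction term. None of the 10 members passed an adjusted p of 0.1 in limma, where 9.85% of all genes did, and 2 had an unadjusted p under 0.05, beside 23.6% of all genes at that cut. These were Bcl2, with a hepatocyte difference 0.60 ± 0.24 under that of whole liver (log2 -0.60, limma adjusted p = 0.157), and Bbc3, with a log2 difference of 0.69 ± 0.29 (limma adjusted p = 0.178). Bbc3 missed the threshold under every alternative run, at adjusted p of 0.114 to 0.311. Bcl2 passed it without WT hepatocytes replicate 2, as 15.2% of all genes did, at -0.81 (limma adjusted p = 0.0225, where its alternatives ranged from 0.0225 to 0.303). Without both libraries that stood apart, a comparison added after seeing the data, 0 members passed in limma, with Bbc3 at 0.74 and Bcl2 at -0.44. For the other 8 members the interaction lay between -0.73 (Bcl2l11) and 0.16 (Bcl2l1). Among them, Bak1 was at -0.33 (limma adjusted p = 0.355), Bcl2l1 at 0.16 (limma adjusted p = 0.752) and Mcl1 at -0.05 (limma adjusted p = 0.924). Size factors moved the median of all genes in the interaction by 0.12, from -0.11, and turned the sign for Mcl1, from -0.05 to 0.10, and for Pmaip1, from -0.01 to 0.16.

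The compartments were also compared within each genotype. Between WT hepatocytes and WT whole liver 0 of 10 members passed an adjusted p of 0.1 in limma, where 1.52% of all genes did, and 6 had an unadjusted p under 0.05, beside 18.8% of all genes at that cut. Those 6 were Bcl2l1, Mcl1, Bax, Bak1, Bbc3 and Bid, all lower in hepatocytes, and Bbc3 had the largest difference, -0.71 ± 0.19 (limma adjusted p = 0.164). Without WT hepatocytes replicate 3, 5 of them passed, beside 17.7% of all genes in the same fit. These were Bcl2l1 (-0.39), Mcl1 (-0.51), Bax (-0.53), Bak1 (-0.55) and Bbc3 (-0.90, limma adjusted p = 0.0384, where its alternatives ranged from 0.0384 to 0.427). In Cdk1 Liv-/- mice 6 of 10 members passed, beside 44.7% of all genes, and all 6 were lower in hepatocytes. They were Bcl2 (-0.90), Mcl1 (-0.42), Bax (-0.59), Bak1 (-0.78), Bid (-0.66) and Bik (-0.76), with limma adjusted p of 0.00200 to 0.0675. Size factors moved the median of all genes in this comparison by 0.20, from -0.19, and relative to that median these values were -0.71, -0.23, -0.40, -0.59, -0.47 and -0.57. Mcl1 and Bik missed the threshold with size factors and without any one of Cdk1 Liv-/- whole liver replicates 1, 2 and 3, which left 4 members. Without replicate 3, the library with Xist, Mcl1 was at -0.48 and Bik at -0.86. Mcl1 also missed it without Cdk1 Liv-/- hepatocytes replicate 1 (-0.38, limma adjusted p = 0.157) or 2, and Bik without replicate 3 (-0.85, limma adjusted p = 0.104), where the alternatives ranged from 0.0199 to 0.476 and from 0.0141 to 0.187. Bbc3 (-0.01 ± 0.20) and Pmaip1 (-0.07 ± 0.17) missed the threshold here, and with size factors both turned positive, to 0.23 and 0.15.

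Within a library, the members can be set against each other as ratios of FPKM, which are descriptions without a test. Summed Bax and Bak1 over summed Bcl2, Bcl2l1 and Mcl1 came to 0.430, 0.456 and 0.463 in WT hepatocytes and to 0.612, 0.831 and 0.486 in Cdk1 Liv-/- hepatocytes. In whole liver the same ratio was 0.488, 0.466 and 0.448 in WT and 0.717, 0.816 and 0.776 in Cdk1 Liv-/-. Effectors were thus higher per guardian in every Cdk1 Liv-/- library, but Cdk1 Liv-/- hepatocytes replicate 3, which had the highest guardian sum of its group at 74.5 FPKM, lay close to the WT range. The 5 BH3-only genes summed to 16.1 to 18.6 FPKM in WT hepatocytes and to 17.4 to 19.1 FPKM in Cdk1 Liv-/- hepatocytes. That sum overlapped between the genotypes in isolated hepatocytes, and in whole liver, at 20.01 to 23.1 FPKM in WT and 20.9 to 27.2 FPKM in Cdk1 Liv-/-, it did so too.

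The make-up of the BH3-only sum differed more than its size. Bbc3 made up 5.25%, 4.41% and 7.73% of it in WT hepatocytes and 26.6%, 42.4% and 34.5% in Cdk1 Liv-/- hepatocytes. In whole liver its share was 9.95%, 7.98% and 9.38% in WT and 26.1%, 25.5% and 23.7% in Cdk1 Liv-/-. Bik, in turn, made up 41.3%, 39.1% and 41.4% of the sum in WT hepatocytes and 22.1%, 10.2% and 16.9% in Cdk1 Liv-/- hepatocytes. Among these 5, Bik was therefore the most abundant RNA per length in each WT hepatocyte library but replicate 2, where Bid was, and Bbc3 was the most abundant in each Cdk1 Liv-/- hepatocyte library. Bad, a BH3-only gene outside the members, was above them, with hepatocyte means of 11.8 FPKM for WT and 11.7 FPKM for Cdk1 Liv-/-. In Cdk1 Liv-/- whole liver Bid made up 33.5%, 24.6% and 30.1% of the sum, above Bbc3 in replicates 1 and 3 and below it in replicate 2. Mcl1 made up 65.8% to 74.0% of the guardian FPKM in the hepatocyte libraries and 71.1% to 72.3% in the whole liver libraries.

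**Figure D3:**
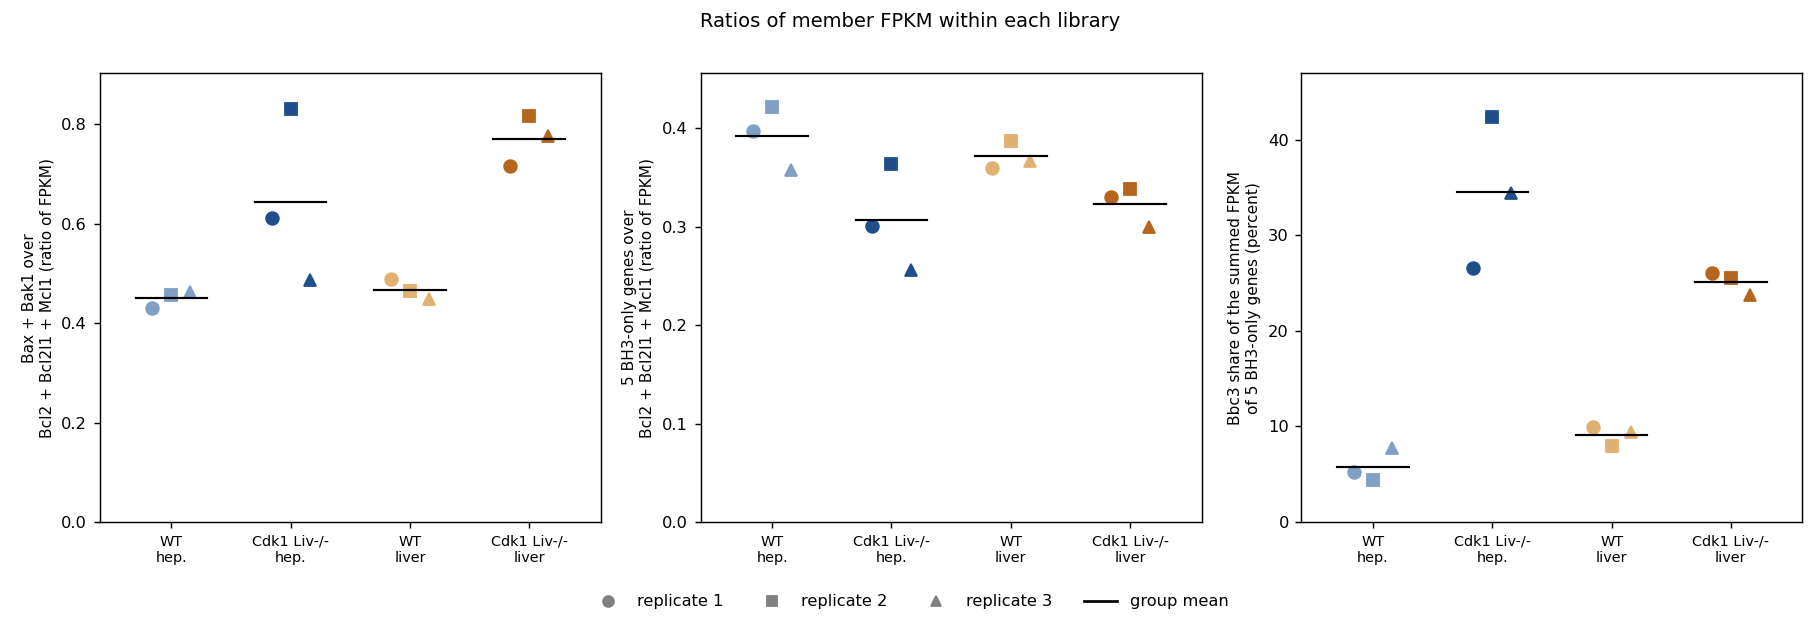
Ratios of FPKM within each library, with the effectors over the guardians (left), the 5 BH3-only genes over the guardians (middle) and the share of Bbc3 in the summed FPKM of the BH3-only genes in percent (right), for the 3 libraries of each group with a line at the mean. Effectors per guardian and the Bbc3 share are higher in every Cdk1 Liv-/- library than in any WT library of the compartment, while BH3-only genes per guardian are lower without overlap in Cdk1 Liv-/- whole liver (means 0.372 and 0.323) and overlap in isolated hepatocytes (0.392 and 0.307).

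Of 16 other genes of the family, 12 passed the filter, while Bcl2a1c, Bcl2l10, Hrk and Bcl2l15 were at 0 or close to it. In isolated hepatocytes 1 of the 12 rose and 1 fell, where 12.1% of all genes rose and 6.61% fell, and the 2 became 0 to 4 over the alternatives. Bmf, a BH3-only gene, was at 4.57, 5.36 and 3.87 FPKM in WT and at 2.88, 1.48 and 2.83 FPKM in Cdk1 Liv-/- hepatocytes, so like Bik it was lower in each Cdk1 Liv-/- library. It fell by 0.85 ± 0.25 (limma adjusted p = 0.0864), but missed the threshold without any one of the 6 hepatocyte libraries, and its alternatives ranged from 0.0132 to 0.195. In whole liver Bmf fell by 0.39 ± 0.12 (limma adjusted p = 0.0529), and missed the threshold without WT replicate 1 or 2 or Cdk1 Liv-/- replicate 1 or 3, at -0.32 without the last, the library with Xist, where its alternatives ranged from 0.0152 to 0.185. Bcl2l14, at 0.07 to 0.09 FPKM in WT hepatocytes and 0.32 to 0.76 FPKM in Cdk1 Liv-/- hepatocytes, rose by 0.75 ± 0.17 (limma adjusted p = 0.0443). Without WT hepatocytes replicate 1, 2 or 3 the change was 0.76, 0.74 and 0.75 and missed the threshold. Its limma adjusted p was then up to 0.122, the upper end of a range from 0.00528. In whole liver Bcl2l14 rose by 0.70 ± 0.10 (limma adjusted p = 0.00615).

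In whole liver 4 of these 12 rose and 2 fell, where 38% of all genes rose and 7.54% fell. Bok, an effector-like gene, was at 5.79, 6.80 and 7.24 FPKM in WT and at 15.1, 17.0 and 14.6 FPKM in Cdk1 Liv-/- whole liver, without overlap. It rose by 1.18 ± 0.10 (limma adjusted p = 0.00151). In isolated hepatocytes Bok was at 3.88, 3.22 and 7.79 FPKM in WT and at 7.76, 6.46 and 10.3 FPKM in Cdk1 Liv-/-, where WT replicate 3, rich in markers of other cells, lay above 2 Cdk1 Liv-/- libraries. Its hepatocyte difference was 0.74 ± 0.33 (limma adjusted p = 0.206) and passed the threshold without that library, at 1.08, where its adjusted p ranged from 0.0564 to 0.422 over the alternatives. Bcl2a1b and Bcl2a1d, guardians of blood cells, rose by 1.79 and 1.05, beside the monocyte and neutrophil markers given above, whose part was not tested. Bcl2l13 fell by 0.15 ± 0.06 (limma adjusted p = 0.0977), and missed the threshold under 12 of 17 alternatives, without any one whole liver library among them, at adjusted p of 0.0106 to 0.518. Among the others, Bcl2l2 (0.10), Bcl2a1a (0.67), Bad (0.19), Bcl2l12 (0.21), Bnip3 (0.22) and Bnip3l (0.38) missed the threshold in whole liver, and with size factors Bcl2l2 (-0.11), Bad (-0.02) and Bnip3 turned negative. Of these, Bcl2a1a passed under 3 of 16 alternatives, at 0.89 without Cdk1 Liv-/- whole liver replicate 1 among them (limma adjusted p = 0.0931, where its alternatives ranged from 0.0395 to 0.330). Bad passed under 2 of 17 (adjusted p of 0.0666 to 0.875 over the alternatives) and Bcl2l12 under 3 of 17 (0.0526 to 0.9702). The 12 had a median log2 fold change of 0.06 in isolated hepatocytes and 0.30 in whole liver.

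Of the lists around the family, p53 and 19 of its targets outside the family had the largest median. It holds 20 genes, of which 11 rose and 0 fell in isolated hepatocytes and 18 rose and 0 fell in whole liver by limma without scaling, beside the 12.1% and 38% of all genes that rose. The median log2 fold change was 1.00 in isolated hepatocytes and 1.13 in whole liver, 0.95 relative to all genes in both. On the log2 scale with 0.5 added, Phlda3 had the largest change of the list. It was 2.93 ± 0.33 in isolated hepatocytes (limma adjusted p = 0.00556) and 2.87 ± 0.11 in whole liver (limma adjusted p = 0.000163). Gdf15 followed with 2.84 ± 0.33 and 2.49 ± 0.27. The ratio of mean FPKM was larger for Eda2r than for Phlda3, at 34.15 against 10.62 in isolated hepatocytes and 12.35 against 9.686 in whole liver. Eda2r averaged 0.09 FPKM in WT hepatocytes, a level where the added 0.5 understates a change. At the other end Trp53 itself was at 0.10 ± 0.13 in isolated hepatocytes (limma adjusted p = 0.642) and at 0.47 ± 0.08 in whole liver, where it passed (limma adjusted p = 0.00877), with an interaction of -0.37 that did not (limma adjusted p = 0.184, for which no alternatives were run). Rrm2b was at 0.03 in both compartments and Ei24 was at -0.01 in whole liver, with Rrm2b turning to -0.02 and -0.11 with size factors. Ei24 passed downward in whole liver with size factors, at -0.23 (limma adjusted p = 0.0369, where its alternatives ranged from 0.0369 to 0.97). The family members introduced above as p53 targets, Bbc3, Pmaip1 and Bax, lay above the list median in both compartments. Every other member lay below it in both. Among these was Bcl2l11, which the study also names as a p53 target, at -0.42 in isolated hepatocytes and 0.32 in whole liver.

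Upstream of BID, the death receptor list had 12 genes. Of these, 2 rose in isolated hepatocytes and 7 in whole liver, beside 12.1% and 38% of all genes. In limma with no alternative applied, 0 fell in either. Over the alternatives 1 to 4 genes of this list passed in isolated hepatocytes and 5 to 8 in whole liver. The receptor gene Tnfrsf10b averaged 0.283 FPKM in WT hepatocytes and 3.14 FPKM in Cdk1 Liv-/- hepatocytes, and rose by 2.20 ± 0.20 there (limma adjusted p = 0.00319) and by 2.17 ± 0.11 in whole liver (limma adjusted p = 0.000376). The adaptor gene Traf2 was at 0.40 in isolated hepatocytes (limma adjusted p = 0.0825) and missed the threshold under 8 of 16 alternatives, size factors and leaving out any one library but Cdk1 Liv-/- hepatocytes replicate 1 among them, at adjusted p of 0.0110 to 0.198. Tnf was at 0.65 in whole liver (limma adjusted p = 0.0456) and missed the threshold without WT whole liver replicate 1 or 2, where its alternatives ranged from 0.0126 to 0.127. Fas was at -0.09 and Tnfsf10 at -0.49 in isolated hepatocytes, and Cflar was at -0.04 and Fasl at -0.07 in whole liver, and none of these 4 passed. Tnfsf10 passed downward without WT hepatocytes replicate 2, at -0.72 (limma adjusted p = 0.0648, alternatives 0.0648 to 0.412), and Cflar with size factors, at -0.25 (limma adjusted p = 0.0734, alternatives 0.0734 to 0.969). Medians were 0.14 in isolated hepatocytes and 0.33 in whole liver, or 0.09 and 0.15 relative to all genes.

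Downstream of BAX and BAK, the list of apoptosome and caspase genes had 20 members. In isolated hepatocytes 3 rose and 1 fell, beside 12.1% and 6.61% of all genes, and in whole liver 7 rose and 1 fell, close to the 38% and 7.54% of all genes there, with medians of 0.03 and -0.00 relative to all genes. Those past the threshold numbered 1 to 7 and 5 to 14 over the alternatives. Apaf1, the scaffold of the apoptosome, averaged 2.67 FPKM in whole liver of WT and 5.85 FPKM in that of Cdk1 Liv-/- mice, and rose by 0.99 ± 0.15 (limma adjusted p = 0.00722). The inhibitor gene Birc3 rose by 0.81 in whole liver, and Birc5 and Birc2 were at 0.96 and 0.57 in isolated hepatocytes, past the threshold (limma adjusted p = 0.0621 and 0.0454). Birc5 missed it under 7 of 16 alternatives, among them leaving out any one library but Cdk1 Liv-/- hepatocytes replicate 3, at adjusted p of 0.0102 to 0.155. Birc2 missed it under 5 of 16, among them leaving out replicate 2 or 3 of either genotype, at adjusted p of 0.00896 to 0.149. Endog, a mitochondrial nuclease gene, fell by 0.70 in isolated hepatocytes and in whole liver by 0.53. Dffb was at -0.27 in isolated hepatocytes and Aifm1 at -0.32 in whole liver, and neither passed. With size factors Aifm1 was at -0.54 and passed (limma adjusted p = 0.0598, where its alternatives ranged from 0.0598 to 0.352), as it did in the two-sample test of the study.

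Transcription regulators of BH3-only genes other than p53 had 12 of 13 genes tested, of which 6 rose in isolated hepatocytes and 10 in whole liver, beside 12.1% and 38% of all genes, and 0 fell by limma without scaling. The alternatives gave 2 to 9 genes past the threshold in isolated hepatocytes and 6 to 11 in whole liver. Ddit3, which encodes the stress factor CHOP, rose by 1.37 ± 0.18 in isolated hepatocytes (limma adjusted p = 0.00884). Trib3 was at 1.48 ± 0.63 there (limma adjusted p = 0.186), and passed without Cdk1 Liv-/- hepatocytes replicate 2, at 2.22 (limma adjusted p = 0.0195, where its alternatives ranged from 0.0195 to 0.390). In whole liver Trib3 was at 0.95 (limma adjusted p = 0.0414) and missed the threshold under 5 of 17 alternatives, size factors and leaving out WT replicate 1 or 2 or Cdk1 Liv-/- replicate 2 among them, at adjusted p of 0.0172 to 0.204, and Jun rose by 2.27 ± 0.25. Atf4 was at 0.28 in isolated hepatocytes (limma adjusted p = 0.0977) and missed the threshold under 11 of 16 alternatives, size factors and leaving out any one library but WT replicate 3 among them, at adjusted p of 0.0366 to 0.230. Nfkb1 was at -0.15 there and at 0.46 in whole liver (interaction -0.61, limma adjusted p = 0.0846, for which no alternatives were run). The forkhead genes Foxo1 and Foxo4 were at -0.07 and -0.12 in whole liver, short of the threshold, which Foxo4 passed downward with size factors, at -0.32 (limma adjusted p = 0.0195, where its alternatives ranged from 0.0195 to 0.499), and in the two-sample test of the study. In isolated hepatocytes both overlapped between the genotypes. The forkhead gene Foxo3 averaged 3.52 and 8.35 FPKM in WT and Cdk1 Liv-/- hepatocytes. In whole liver its means were 2.76 and 3.96 FPKM. It was higher in every Cdk1 Liv-/- library than in any WT library of the same compartment.

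For the turnover of the MCL1 and BIM proteins, 6 of 7 genes were tested. In isolated hepatocytes 1 passed (0 to 2 over the alternatives), beside 18.7% of all genes. In whole liver 2 passed (1 to 3), beside 45.6% of all genes. Usp9x, which stabilises MCL1, was at 0.42 in isolated hepatocytes (limma adjusted p = 0.0937) and missed the threshold under 10 of 16 alternatives, size factors and leaving out any one library but WT hepatocytes replicate 1 among them, at adjusted p of 0.0137 to 0.218. In whole liver it was at 0.31 (limma adjusted p = 0.00858), but at 0.10 with size factors, where it missed the threshold (limma adjusted p = 0.162, alternatives 0.00522 to 0.162). Dynll1, which holds BIM at microtubules, was at -0.03 in isolated hepatocytes and rose by 0.77 in whole liver, an interaction of -0.80 (limma adjusted p = 0.0977, for which no alternatives were run). Huwe1 (0.34) and Btrc (-0.18) in isolated hepatocytes and Dynll2 (-0.01) and Huwe1 (-0.06) in whole liver missed the threshold, which Huwe1 passed in isolated hepatocytes in 1 fit of all 12 libraries (limma adjusted p = 0.0716, alternatives 0.0716 to 0.318).

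**Figure D4:**
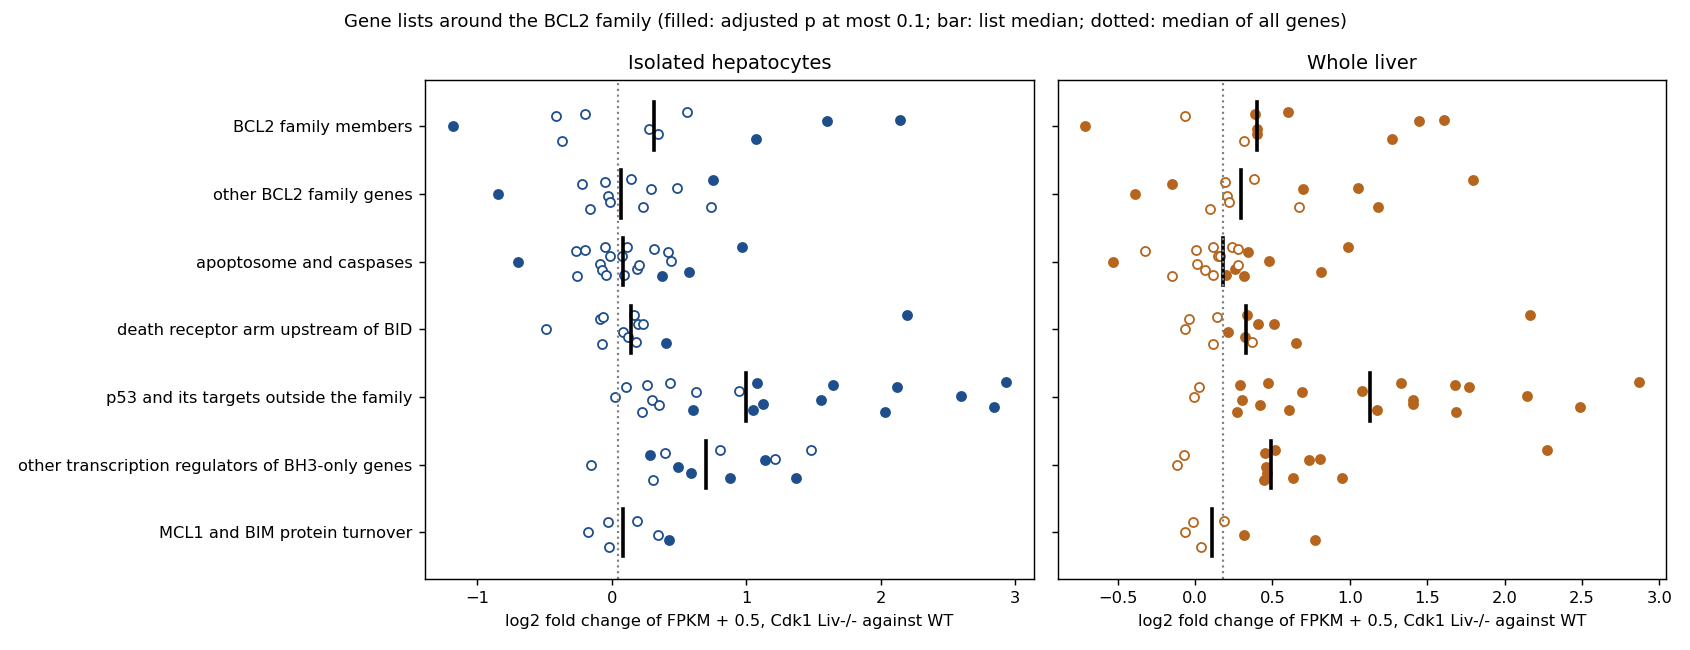
Log2 fold change of FPKM + 0.5 (horizontal axis) of each tested gene in the family and in 6 lists around it, in isolated hepatocytes (left) and whole liver (right), with filled circles for an adjusted p of at most 0.1, black bars at list medians and a dotted line at the median of all genes tested. The p53 list has medians of 1.00 and 1.13, and those of the apoptosome and turnover lists lie near the median of all genes.

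Across the 12 libraries, the genes outside these lists whose log2 FPKM ran most closely with Bbc3 were Supt5, S100a10 and Fbxo44, with Pearson r of 0.980, 0.976 and 0.974 among 12120 genes with a mean of at least 1 FPKM. With Bax, Anxa5, Tpd52 and Sema4d ran most closely, at 0.989, 0.989 and 0.988. With Bcl2l11, the closest were Adarb1, Serpina7 and 4833422C13Rik, at 0.893, 0.891 and 0.875, each lower than any of the values for Bax and Bbc3. S100a10 averaged 15.0 and 89.6 FPKM in WT and Cdk1 Liv-/- hepatocytes, and Anxa5 averaged 44.7 and 124 FPKM. These correlations describe 12 libraries of 4 groups that share genotype and compartment.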

How the data were processed

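RNA of isolated hepatocytes and whole liver was sequenced as stranded polyA libraries (TruSeq) with single-end reads of 75 bases. The deposited FPKM values were made by the authors with RSEM 1.2.31 and STAR on mm10, according to the submitters' processing notes. The STAR version and annotation release were not given in the sources used here. All 12 value columns were matched to samples, with 0 left over. The members and lists were chosen with earlier results of these data known.

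Log2 of FPKM + 0.5 was tested with limma 3.58.1 in R 4.3.3 (moderated test with trend, Benjamini-Hochberg over 17385 genes with a mean of at least 0.1 FPKM), within each compartment and genotype and, for the interaction, over all 12 libraries. Alternatives changed the added value, filter, scaling, model and test, the last being the study's own choice of a two-sample test with q-values, or left out 1 library. Leaving out both libraries that stood apart was added after seeing the data. Named genes are all members and tested family genes, and of each list the 2 largest and 2 smallest changes per compartment. Eda2r and Foxo3 were named besides. Reads per FPKM were estimated from the smallest steps between values. Promoters came from RefSeq on GRCm38.p6.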

Additional observations from a re-analysis of the deposited data

Results flagged for a closer look

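Of the 12 tested family genes outside the 10 members, 2 passed an adjusted p of 0.1 in limma's interaction test, beside 9.85% of all genes. Both, Bcl2a1b and Bcl2a1d, are guardians of blood cells. Bcl2a1b was at 0.95, 1.49 and 1.98 FPKM in WT and at 4.60, 10.3 and 4.90 FPKM in Cdk1 Liv-/- whole liver. In isolated hepatocytes it was at 1.09, 0.33 and 2.36 FPKM in WT and at 1.24, 0.50 and 1.04 FPKM in Cdk1 Liv-/-. The interaction was -1.96 ± 0.62 (limma adjusted p = 0.0984), from log2 fold changes of -0.16 in isolated hepatocytes and 1.79 in whole liver. It missed the threshold under 18 of 21 alternatives, which ranged from 0.0252 to 0.213, without WT hepatocytes replicate 3 (-1.52) and without the library with Xist (-2.11) among them.

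Bcl2a1d was at 0.53, 0.29 and 0.35 FPKM in WT and at 0.94, 1.56 and 1.58 FPKM in Cdk1 Liv-/- whole liver. Hepatocyte libraries had 0.16, 0 and 0.38 FPKM in WT and 0.10, 0.17 and 0.15 FPKM in Cdk1 Liv-/-. Its interaction was -1.10 ± 0.30 (limma adjusted p = 0.0709), from -0.05 in isolated hepatocytes and 1.05 in whole liver, and it missed the threshold under 14 of 20 alternatives, which ranged from 0.0204 to 0.206. Without WT hepatocytes replicate 3 it was -0.90 and without the library with Xist -1.01, past the threshold in neither. Of the windows of 75 bases in these transcripts, 68.4% for Bcl2a1b and 67.6% for Bcl2a1d are shared with other Bcl2a1 genes or with Gm29094, which overlaps Bcl2a1b on the same strand, so reads are hard to assign to one of them. In whole liver the neutrophil markers summed to 75.9, 47.7 and 73.0 FPKM in WT and 92.8, 327 and 261 FPKM in Cdk1 Liv-/-, and their part in these differences was not tested.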

How the results depend on the processing

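Of 835 alternative fits of the 50 member tests, 772 kept direction and side of the threshold, 20 became weaker, 15 stronger and 28 reversed. For 68 other tests these numbers were 953, 110, 23 and 33 of 1119. The cause of a changed or reversed value was not tested. An FPKM of 1 stood for an estimated 34.7 to 49.6 reads per kb of transcript, a rough value that depends on the transcript length assumed. At these estimates 31.8% to 41.2% of the low genes used fell on whole reads, beside 6.8% to 7.62% at the median of the values tried. Genes under 1 FPKM, such as WT Pmaip1 and Bcl2 in isolated hepatocytes, rest on fewer reads per kb, with more reads in all on longer transcripts. With 3 libraries per group, a difference that misses the threshold is not shown to be absent.

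Leaving out 1 library at a time gave 0 to 1 members past the adjusted p in the interaction and 0 to 5 between WT compartments, where no filter on low values gave 1. The 1 in the interaction stood beside 15.2% of all genes. Between WT compartments, the 5 stood beside 17.7% and the 1 beside 1.27%.

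Scaling and added values reversed Bcl2a1d (0.0378 with 0.1 added), Bad (0.00195 after rescaling to the same sum) and Rrm2b (-0.0221 with size factors) in isolated hepatocytes. In whole liver, size factors gave -0.11 for Bcl2l2, -0.0195 for Bad, -0.000912 for Bnip3 and -0.11 for Rrm2b. The same sum gave 0.0287 for Ei24 and 0.0221 for Dynll2 there, and leaving out the library with Xist gave 0.0219 for Bid, 0.0179 for Cflar and 0.0341 for Huwe1. In the interaction, Mcl1 became 0.10 with size factors and 0.0253 without both libraries that stood apart, and Pmaip1 became 0.0541 with 0.1 added, 0.16 with size factors and 0.17 without both. Between Cdk1 Liv-/- compartments, size factors gave 0.0766 for Bcl2l1, 0.23 for Bbc3 and 0.15 for Pmaip1, and the same sum gave 0.00745 for Bbc3.

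With 1 library left out, hepatocyte values that changed sign ran from -0.049 to 0.47 for Bcl2a1a, -0.62 to 0.27 for Bcl2a1b, -0.25 to 0.15 for Bcl2a1d, -0.0261 to 0.00321 for Bad, -0.16 to 0.14 for Bcl2l13, -0.0788 to 0.18 for Rrm2b and -0.19 to 0.14 for Dynll1. Whole liver values ran from -0.20 to 0.0219 for Bid, -0.0839 to 0.43 for Bnip3, -0.11 to 0.0179 for Cflar, -0.12 to 0.0301 for Fasl, -0.0181 to 0.0804 for Rrm2b, -0.0244 to 0.0154 for Ei24, -0.089 to 0.0836 for Dynll2 and -0.15 to 0.0341 for Huwe1. Interaction values ran from -0.044 to 0.42 for Bcl2l1, -0.19 to 0.0902 for Mcl1 and -0.18 to 0.18 for Pmaip1. Between compartments they ran from -0.25 to 0.11 for Pmaip1 in WT, and in Cdk1 Liv-/- from -0.39 to 0.0745 for Bcl2l1, -0.16 to 0.17 for Bbc3 and -0.20 to 0.0447 for Pmaip1.

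Whether equal numbers mark 1 animal was not given, and they were not treated as pairs, since correlations of residuals at equal numbers ran from -0.32 to 0.24. For WT hepatocytes and WT whole liver they were all above 0, at 0.0456, 0.0741 and 0.239, so a shared animal is not excluded. With the replicate number as a replicate block, 4 members passed in isolated hepatocytes and 8 in whole liver, beside 8.38% and 38% of all genes. In the interaction 0 members passed, beside 3.77% of all genes. Between WT compartments 0 members passed, in a fit where 0 of all 17385 genes did. Between Cdk1 Liv-/- compartments 5 passed, beside 35.9% of all genes. Mcl1 was not among those 5 (-0.42, limma adjusted p = 0.139, alternatives 0.0199 to 0.476). In isolated hepatocytes the block also moved the list counts from 2 to 1 for other family genes, 4 to 1 for apoptosome genes, 2 to 1 for death receptor genes, 6 to 2 for regulators and 1 to 0 for turnover genes. Over all alternatives these counts ran from 0 to 4, 1 to 7, 1 to 4, 2 to 9 and 0 to 2, and in whole liver from 4 to 9, 5 to 14, 5 to 8, 6 to 11 and 1 to 3. The p53 list had 9 to 14 and 14 to 18.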
